A study of Arabidopsis thaliana with 29 samples.

Results

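The GFP-HY5 library came from Arabidopsis thaliana seedlings of the line 2x35S::GFP-HY5/hy5, for which no fusca phenotype is recorded, and it was set against wild-type (WT) seedlings. All nuclear loci on chromosomes 1 to 5 were taken, 28496 of the 59999 loci in the count table. Both groups were 7-day-old seedlings grown in 16 h of light and 8 h of dark, with the label light as treatment and 0.01 as the sucrose label. Both had 3 days of stratification and light of 100 µmol per square metre and second. Polyadenylated RNA was sequenced. Another group, called fusca here, came from the same line but showed the fusca phenotype, a name for dark-pigmented seedlings. It enters only where its values are set beside those of GFP-HY5.

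HY5 is a bZIP transcription factor that promotes seedling development in light. The E3 ubiquitin ligase COP1, acting with SPA proteins, and the DET1 complex repress that programme, and COP1 marks HY5 for degradation in the dark. HY5 is known for its roles in flavonoid and chlorophyll genes, nitrogen and sulfur uptake, copper and iron supply and hypocotyl growth, and the bZIP protein HYH is its nearest relative.

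A fusion of green fluorescent protein with HY5 is expressed in the line under a doubled 35S promoter, which is active in nearly all cells. The line has a hy5 background whose allele is not named for the RNA samples. Its accession background is not named for them either. WT had 3 libraries. The 3 GFP-HY5 columns differed in 0 of 60004 rows, where pairs of WT columns differed in 26704 to 26784 rows, so they were counted as 1 library and no p-value is given for any comparison. Nothing states that the WT libraries came from separate cultures, and their spread may be technical. Depth, summed over loci, was 12451585 counts for GFP-HY5, against 12451547, 12545563 and 11860094 counts for WT replicates 1, 2 and 3.

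Levels are CPM, counts scaled to a common library size after correction with TMM factors (which adjust for library composition), and differences are GFP-HY5 minus the WT mean on the log2 scale with a prior count of 2. CPM does not account for gene length, so levels are compared between libraries and not between genes. A locus passed the filter where the mean of the GFP-HY5 and WT levels was at least 1 CPM, and 19366 loci did. Of the others, 4047 had no count in the 4 libraries and 5083 had counts under the filter. A locus is called higher or lower here where it lay at least 2-fold from the WT mean and outside the range of the WT libraries. The filter kept 171 loci with a WT mean under 1 CPM and 136 with GFP-HY5 under 1 CPM, and those had to differ in order to pass. In bulk RNA of seedlings, fewer cells of a type and less RNA per cell cannot be told apart.

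HY5 (AT5G11260), the gene that the transgene carries, checks the labels. It stood at 68.0 CPM in GFP-HY5, against 12.5, 14.2 and 10.6 CPM in WT replicates 1, 2 and 3. The library lay far above every WT library, with a log2 difference of 2.45 and a ratio of 5.45. The 95% interval of the ratio was 4.86 to 6.12; this and all other intervals given here cover counting error only. Counts at the locus do not separate the transgene from the mutant allele.

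Its relative HYH (AT3G17609) stood at 7.29 CPM in GFP-HY5, against 12.9, 13.6 and 13.6 CPM in WT. The value lay below all WT libraries, with a log2 difference of -0.86 that missed the 2-fold limit. COP1 (AT2G32950) stood at 31.6 CPM in GFP-HY5 and at 32.5, 34.0 and 34.2 CPM in WT, a difference of -0.09. DET1 (AT4G10180) stood at 35.2 CPM in GFP-HY5 and at 32.9, 35.7 and 35.4 CPM in WT, within the WT range.

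Of 35 light-signalling loci 28 passed the filter, and HY5 was the 1 locus called, higher (3.57%, against 0.692% of all passing loci). The median difference of the list was -0.01, where each WT library against the others gave 0.05, 0.02 and -0.03. Among COP1 partners, SPA1 stood at 45.1 CPM in GFP-HY5 and at 61.2, 64.2 and 60.6 CPM in WT. SPA3 stood at 40.5 CPM in GFP-HY5 and at 46.9, 51.6 and 57.2 CPM in WT. Both lay below all WT libraries, while SPA2, at 0.13, lay above them and SPA4, at 0.03, lay within their range. RUP1 and RUP2 encode repressors of the UV-B receptor UVR8. RUP1 stood at 2.56 CPM in GFP-HY5, against 6.16, 5.32 and 4.22 CPM in WT (log2 difference -0.97). RUP2 stood at 3.80 CPM in GFP-HY5, against 6.80, 5.64 and 4.58 CPM in WT (-0.54). The receptor gene UVR8 differed by -0.03.

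The phytochrome-interacting factors, bHLH proteins that repress light responses, lay on both sides of WT. PIF4 stood at 3.26 CPM in GFP-HY5, above 1.68, 1.43 and 1.76 CPM in WT, a difference of 0.94. PIF3 stood at 6.90 CPM in GFP-HY5, below 12.3, 9.53 and 9.50 CPM in WT, a difference of -0.58. PIF1 and PIF5 lay at 0.17 and 0.22, above all WT libraries. The photoreceptor genes PHYA, PHYB, CRY1 and CRY2 lay between -0.10 and 0.13.

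Over all nuclear loci that passed the filter, 267 were called, or 1.38%. They comprised 134 called higher, or 0.692%, and 133 called lower, or 0.687%. At such shares a short list holds few or no called loci, so 0 or 1 call in a list says little about it. Scaled by library size alone, without TMM factors, 267 loci were again called but 165 were higher and 102 lower, so the higher share was 61.8% in place of 50.2%. The median difference over all passing loci was 0.0081 with TMM factors. At 58.3% of passing loci GFP-HY5 was outside the span of the WT libraries, with 29.2% above every WT library and 29.2% below. Without any difference between lines, a single library would still lie outside the span of so few others at many loci. The share is thus no count of loci that differ, and it was not taken for the WT libraries. A difference below 0 was found at 48.6% of passing loci. The called loci comprised 257 protein-coding genes, 7 loci of the class ncRNA and 3 of the class lncRNA.

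The WT libraries gave the background. Against 2 WT libraries at a time, GFP-HY5 had 307 (1.59%), 293 (1.51%) and 265 (1.37%) called loci when WT replicates 1, 2 and 3 were left out in turn. Each WT library against the other 2 had 82 (0.423%), 56 (0.289%) and 97 (0.501%) called loci for replicates 1, 2 and 3. The GFP-HY5 counts were thus above all WT counts with equal numbers of libraries set against. The filter, however, gives GFP-HY5 more weight than any single WT library. It therefore lets in loci high only in GFP-HY5 more readily than loci high only in a single WT library. The WT counts under a filter even to all libraries were not taken. Of the 267 loci, 181 were called against every pair of WT libraries, 99 higher and 82 lower. At 137 loci GFP-HY5 was at least 2-fold from each single WT library, 82 higher and 55 lower. The WT libraries themselves were spread over at least 2-fold at 53 of the called loci, and 35 also met the same rule in a comparison of one WT library with the others.

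**Figure D1:**
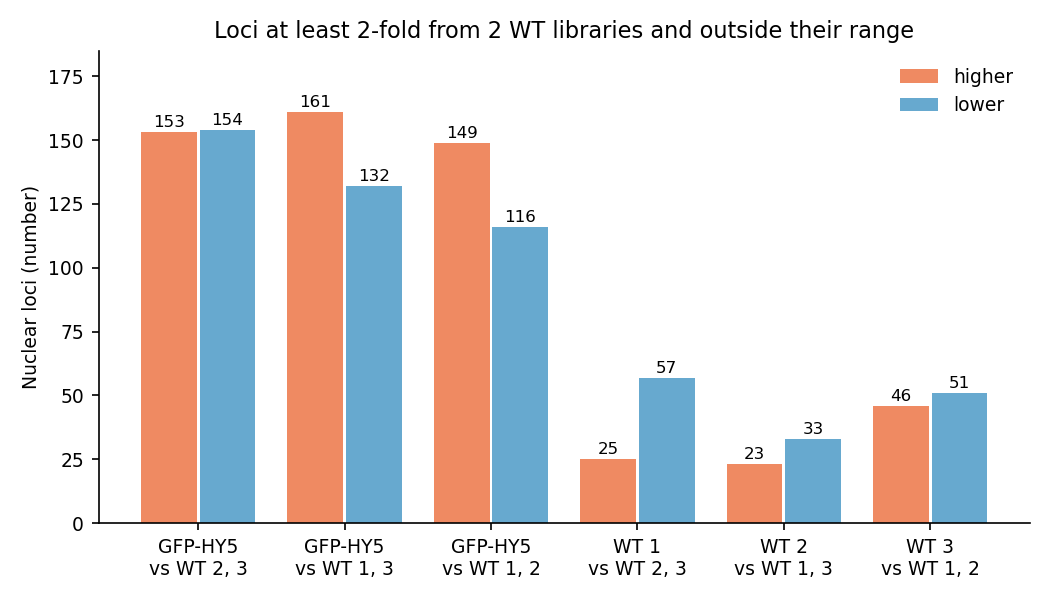
The bars give the number of nuclear loci at least 2-fold from the mean of 2 WT libraries and outside their range, higher and lower drawn apart, for GFP-HY5 against each pair of WT libraries and for each WT library against the other 2. GFP-HY5 had 265 to 307 such loci in all, and the WT libraries had 56 to 97.

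Large differences lay on one side. Among called loci 48 were at least 4-fold higher and 6 at least 4-fold lower. Around the 2-fold limit, the last loci inside were HRGP1 at -1.0004, and AT3G12955 and GRI, both at -1.001. The first loci outside were AT1G61460 at 0.9987, AT1G11810 at 0.9986 and AT2G25625 at -0.9979.

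The strongest increases were at loci with almost no reads in WT. Of the 134 loci called higher, 25 had at most 3 counts in every WT library, and 11 of those had 0 counts in all of them. Summed over the 25 loci, GFP-HY5 held 4316 counts, against 11, 8 and 20 counts in WT replicates 1, 2 and 3. Single loci held between 32 and 1102 counts in GFP-HY5. Since loci near 0 in WT passed the filter only through GFP-HY5, the count of 25 is read against the WT libraries: at the same limits, at least 30 counts in one library and at most 3 in each of those set against it, the number of loci was 0 for every WT library against the other 2. For the opposite pattern, at most 3 counts in GFP-HY5 and at least 30 in every WT library, the number of loci was also 0.

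AT4G08593 held 1102 counts in GFP-HY5, against 1, 1 and 3 counts in WT. Its ratio was 623, with an interval of 266 to 1924. AT4G07965 held 337 counts in GFP-HY5, against 0, 0 and 1 count in WT. OFP9 (AT4G04030), named for the ovate family of transcriptional repressors and the 1 locus of the 25 with a gene symbol, held 264 counts in GFP-HY5, against 0, 0 and 1 count in WT. At all of these loci the few WT reads leave the ratio poorly fixed: for OFP9 it was 747 with an interval of 133 to 29601. AT4G16215 held 183 counts in GFP-HY5 and 0 counts in every WT library, and was at least 57.5-fold higher against a floor of 3 counts per WT library. AT4G19240 held 139 counts in GFP-HY5 and 0 in every WT library, at least 43.7-fold higher.

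Other loci of the same kind were AT1G47660, with 531 counts in GFP-HY5 and 0, 1 and 0 counts in WT, which overlaps AT1G47657. AT1G35500 held 226 counts in GFP-HY5 and 0, 1 and 1 counts in WT. AT4G18150 held 188 counts in GFP-HY5 and 0, 0 and 2 counts in WT, and AT4G06688 held 186 counts in GFP-HY5 and 0, 0 and 1 count in WT. The gene table used here gives no function for these loci. Of the 25 loci 3 overlap another locus, where counts are uncertain.

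**Figure D2:**
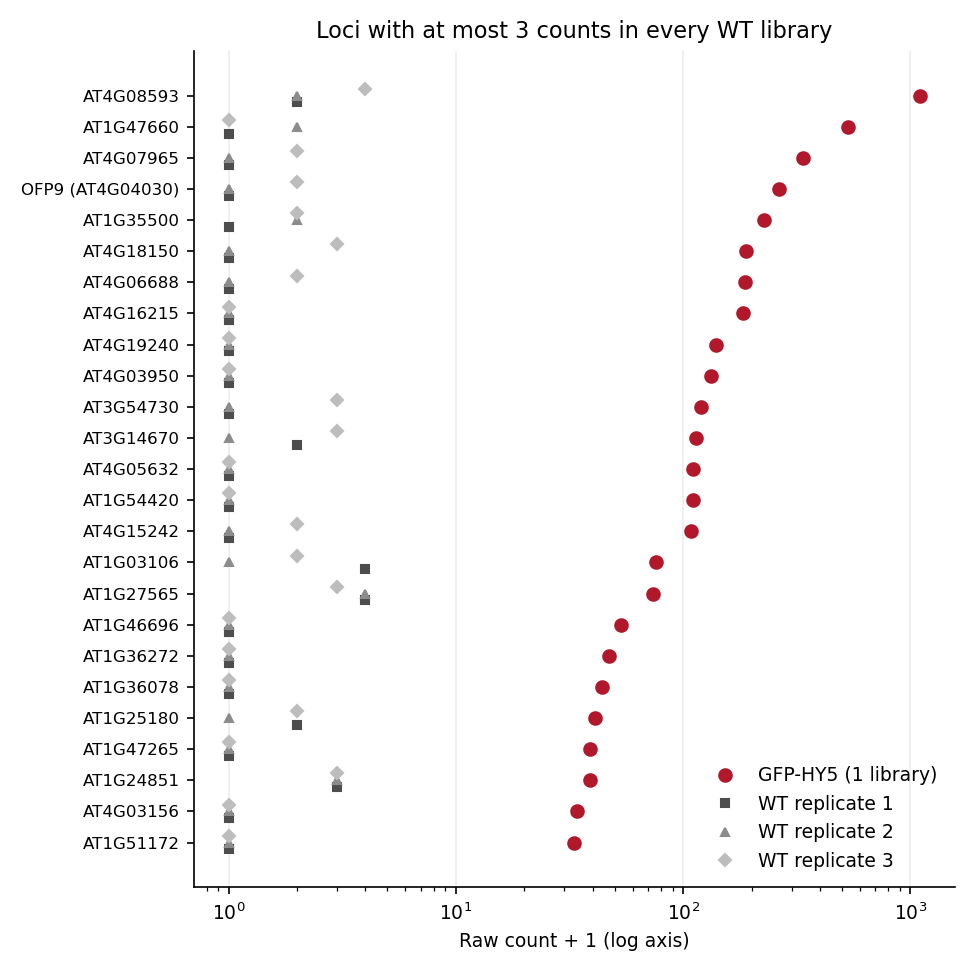
Raw count plus 1, on a log axis, of the 25 loci called higher that had at most 3 counts in every WT library; circles are the GFP-HY5 library and the grey marks the 3 WT libraries. GFP-HY5 counts run between 32 and 1102, and no WT count exceeds 3.

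These 25 loci lay on 3 of the 5 chromosomes. Chromosome 1 held 12 of them (48.0%, where it held 26.5% of passing loci), chromosome 4 held 11 (44.0%, of passing loci 15.5%) and chromosome 3 held 2 (8.0%, of passing loci 19.7%). Chromosomes 2 and 5 held 0 each. Passing loci are an unlike background for these 25, since only 171 of 19366 had a WT mean under 1 CPM. The chromosome shares among all nuclear loci with so few WT counts were not taken. Transposable-element loci, which are not among the nuclear genes described here, took 1.81% of GFP-HY5 counts and 0.983, 0.950 and 0.950% of WT counts, and whether reads from such elements reach these loci was not tested.

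The same loci carried reads in the fusca libraries, which come from the same transgenic line. At all 25 loci the lowest fusca library lay above the highest WT library, and at 24 every fusca library was above 1 CPM. The 25 loci were picked for at most 3 counts in every WT library, so a few fusca reads suffice to exceed WT. The share among other loci with so few WT counts was not taken. All 3 fusca libraries lay above GFP-HY5 at 9 loci and below it at 5. AT4G08593 stood at 96.9 CPM in GFP-HY5 and at 81.8, 96.6 and 89.5 CPM in fusca, with factors estimated over 7 libraries. AT4G16215 stood at 16.1 CPM in GFP-HY5 and at 39.7, 71.8 and 38.6 CPM in fusca. The exception was AT1G03106, with 6.6 CPM in GFP-HY5 and 0.8, 0.8 and 0.4 CPM in fusca. The comparisons of GFP-HY5 and of fusca with WT share the WT libraries.

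A pair of overlapping loci, AT2G05914 and AT2G05915, had the largest differences of all, and their WT counts were not all at or under 3. AT2G05915 held 2301 counts in GFP-HY5, against 1, 2 and 9 counts in WT. AT2G05914, of the class lncRNA, held 3201 counts in GFP-HY5, against 4, 5 and 7 counts in WT. Their log2 differences were 8.73 and 8.71. Reads that fall on both loci count for neither, and whether the loci lie on the same strand was not looked at. The ncRNA locus AT1G67105 was measurable in WT. It held 2329 counts in GFP-HY5 and 23, 23 and 17 counts in WT, or 181 CPM in GFP-HY5 and 1.72 ± 0.19 CPM in WT (SD, n = 3). Its ratio was 105, with an interval of 81.4 to 137.

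Genes of DNA methylation and silencing were set beside these loci. Their list of 16 had 13 that passed, with 0 called, where 1.38% of all passing loci were. The median was 0.17, between WT medians of 0.20, 0.10 and -0.27. Of the 13 loci 7 lay above every WT library (53.8%, against 29.2% of all passing loci). Below every WT library lay 1 (7.69%, against 29.2%). The maintenance methyltransferase gene MET1 stood at 77.1 CPM in GFP-HY5 and at 80.0, 79.5 and 66.0 CPM in WT. The remodeller gene DDM1 stood at 15.7 CPM in GFP-HY5 and at 16.1, 14.1 and 12.8 CPM in WT. Both lay within the WT range. ROS1, a DNA demethylase gene, stood at 13.3 CPM in GFP-HY5, below 22.5, 21.4 and 16.0 CPM in WT (log2 difference -0.57). SDC, FWA and QQS, whose transcripts are known to appear when DNA methylation is lost, stayed under the filter with at most 0.62 CPM in GFP-HY5 and at most 0.64 CPM in WT. Whether DNA methylation differed between the lines was not tested.

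Root-hair genes lay on the lower side. Of 16 root-hair loci, a list drawn up after their values were seen, 15 passed, 7 were called lower (46.7%, against 0.687% of all passing loci) and 12 lay below every WT library (80.0%, against 29.2% of all passing loci). Their median difference was -0.92, where each WT library against the others gave -0.39, 0.06 and 0.36. Against single WT libraries the median of GFP-HY5 was -0.65, -0.93 and -1.16 for replicates 1, 2 and 3. WT replicate 1 lay nearest to GFP-HY5, so the size of the difference varied with the WT library. Summed over the list, GFP-HY5 held 204 CPM and the WT libraries 307, 370 and 411 CPM.

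Genes of successive steps of hair formation differed by unlike amounts. RHD6, the bHLH gene that starts hair formation, stood at 2.95 CPM in GFP-HY5 and at 2.32, 3.18 and 2.46 CPM in WT. RSL2, a later bHLH gene, differed by 0.08, and both lay within the WT range. RSL4, the bHLH gene that sets hair growth, stood at 1.24 CPM in GFP-HY5, below 2.80, 2.94 and 2.99 CPM in WT (-1.13). RHD2, the NADPH oxidase of the hair tip, stood at 14.7 CPM in GFP-HY5, below 20.5, 27.9 and 26.9 CPM in WT (-0.76). LRX1, an extensin-like wall protein of hairs, stood at 19.5 CPM in GFP-HY5, below 30.9, 37.5 and 44.0 CPM in WT (-0.92). CSLD3, a cellulose-synthase-like gene needed for hair growth, stood at 55.8 CPM in GFP-HY5, within the WT range of 48.9 to 57.4 CPM.

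Some wall genes of the hair differed more than RSL4 (-1.13), and others, such as PRP3 and LRX1, differed less. PRP1, a proline-rich protein gene, had 127 counts in GFP-HY5 and 326, 436 and 484 counts in WT (-1.76). PRP3 stood at 35.7 CPM in GFP-HY5, against 61.5, 70.6 and 88.2 CPM in WT (-1.02), a call lost without WT replicate 3 (-0.88) and with library size only (-0.96). XTH12 and XTH13 encode xyloglucan-modifying enzymes. XTH13 had 19 counts in GFP-HY5, against 80, 98 and 97 counts in WT (-2.23). XTH12 had 65 counts in GFP-HY5, against 147, 233 and 216 counts in WT (-1.64). XTH12 and XTH13 are close relatives, and how reads that match several copies were counted is not stated.

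Extensins are wall glycoproteins that are cross-linked into the wall, and those matched by an EXT symbol lay lower. Extensin-type loci with other symbols were not counted. The EXT and RHS families were picked after their values were seen. All 6 EXT loci, matched by symbol, lay below every WT library, where 29.2% of all passing loci did. Of these 4 were called lower (66.7%, against 0.687% of all passing loci). The median was -1.42, and the WT libraries against each other gave -0.27, -0.14 and 0.32. EXT13 had 258 counts in GFP-HY5, against 751, 818 and 941 counts in WT (-1.77). EXT12 had 262 counts in GFP-HY5, against 661, 761 and 754 counts in WT (-1.55). EXT6 had 289 counts in GFP-HY5, against 655, 756 and 882 counts in WT (-1.47). EXT3 and EXT4, the others of the 6 loci besides EXT10, lay at -0.40 and -0.36. Of 9 RHS (root hair specific) loci, 2 were called lower (22.2%, against 0.687% of all passing loci), RHS14 at -1.07 and RHS18 at -1.15. The RHS14 call was lost without WT replicate 3 (-0.94). Of the 9 loci 6 lay below every WT library (66.7%, against 29.2% of all passing loci).

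Larger wall families were examined too. Of 30 XTH loci 25 passed and 6 were called lower (24.0%, against 0.687% of all passing loci), namely XTH12, XTH13, XTH14, XTH26, XTH31 and XTH33. The XTH median was -0.13, where WT gave -0.11, 0.03 and 0.08. With library size only, the calls of XTH14 (-0.97), XTH31 (-0.98) and XTH33 (-0.95) were lost. Without WT replicate 3 those of XTH14 (-0.92) and XTH31 (-0.92) were lost, and without WT replicate 2 those of XTH31 (-0.996) and XTH33 (-0.96). A prior count of 5 also ended the XTH33 call (-0.98). Of 23 expansin (EXPA) loci 16 passed and 0 were called, with a median of -0.07, where WT gave -0.18, 0.07 and 0.10. These families too were picked after the values were seen.

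The list of root markers had 9 of 10 loci passing and 1 called lower (11.1%, against 0.687% of all passing loci). Its median was -0.27, where WT gave -0.16, -0.06 and 0.31. It holds markers of the endodermis besides those of hairs. The CASP proteins build the Casparian strip, and MYB36 switches them on. Of 5 such markers (CASP1, CASP2, CASP4, CASP5 and MYB36), 4 passed, 0 were called and the median was 0.07. Of the 4, 1 lay below every WT library, at -0.18. Summed, they held 54.2 CPM in GFP-HY5 and 51.6, 43.8 and 57.7 CPM in WT, inside the WT range. The hair markers EXPA7, EXPA18, COBL9 and PRP3 summed to 61.4 CPM in GFP-HY5 and to 97.7, 114 and 139 CPM in WT, and all 4 lay below every WT library. PYK10, a β-glucosidase of root and hypocotyl ER bodies, stood at 2543 CPM in GFP-HY5, below 3116, 3039 and 3028 CPM in WT (-0.27).

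**Figure D3:**
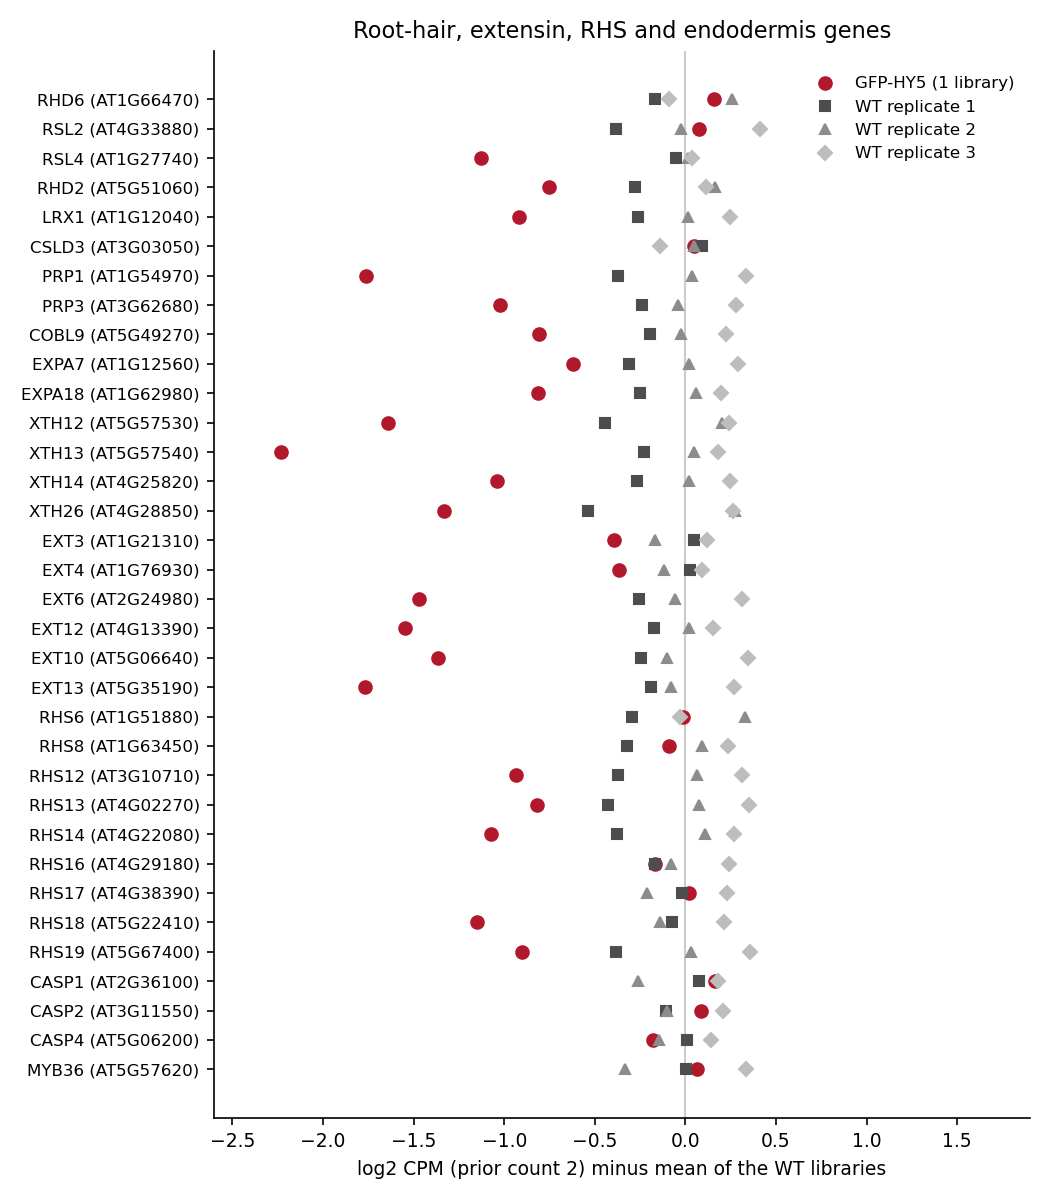
Each row is a root-hair, EXT, RHS or endodermis gene that passed the filter, and the x axis is log2 CPM (prior count 2) minus the mean of the WT libraries; circles are GFP-HY5 and grey marks the 3 WT libraries. All 6 EXT genes and 12 of 15 root-hair genes lie left of every WT library, in sets picked after their values were seen. Of the endodermis genes, CASP1, CASP2 and MYB36 lie among the WT libraries and 1 lies left of every WT library.

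Potassium, sulfate and iron uptake genes of the root were among single loci called lower. HAK5, a high-affinity potassium transporter, had 4 counts in GFP-HY5, against 58, 39 and 45 counts in WT (-3.09). SULTR1;1, a sulfate transporter, had 17 counts in GFP-HY5, against 25, 43 and 38 counts in WT (-1.02). Library size only (-0.96), a prior count of 5 (-0.92) and leaving out WT replicate 2 (-0.89) or 3 (-0.91) each ended that call. IRT2, an iron transporter, had 76 counts in GFP-HY5, against 112, 153 and 208 counts in WT (-1.07). The IRT2 call was lost without WT replicate 3 (-0.81).

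Flavonoid genes are a known target group of HY5, and they lay lower in GFP-HY5 than in WT. Of 30 loci 26 passed, 3 were called lower (11.5%, against 0.687% of all passing loci) and 22 had a negative difference. The median was -0.50, where each WT library against the others gave -0.27, 0.29 and 0.11, and against single WT libraries it was -0.26, -0.73 and -0.65. WT replicate 1 again lay nearest to GFP-HY5. All 17 genes of enzymes and transport lay below the WT mean, where 48.6% of all passing loci did, and 12 lay below every WT library (70.6%, against 29.2% of all passing loci). Their sum was 1501 CPM in GFP-HY5, against 2284, 2824 and 2771 CPM in WT.

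The called genes act in the first steps that are particular to flavonoids. CHS, chalcone synthase, stood at 425 CPM in GFP-HY5, against 838, 965 and 1003 CPM in WT (-1.13). F3H, flavanone 3-hydroxylase, stood at 66.6 CPM in GFP-HY5, against 120, 155 and 140 CPM in WT (-1.05). F3'H, flavonoid 3'-hydroxylase, stood at 16.6 CPM in GFP-HY5, against 33.4, 44.8 and 43.2 CPM in WT (-1.27). All 3 lay below every WT library. The F3H call was lost without WT replicate 2 (-0.96) and with library size only (-0.98), and F3H overlaps the lncRNA locus AT3G51238, which lay at -1.11.

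Flavonol genes were below the WT range without a call, with FLS1, flavonol synthase, at -0.80 and the glucosyltransferase gene UGT78D2 at -0.84. CHIL, a chalcone isomerase-like protein that raises flux into the pathway, lay at -0.99. For the late anthocyanin genes WT replicate 1 was the low library. DFR, dihydroflavonol reductase, stood at 47.4 CPM in GFP-HY5 and at 45.0, 97.7 and 74.4 CPM in WT, within the WT range. LDOX, UF3GT, GSTF12 and 5MAT also lay above WT replicate 1 and below WT replicates 2 and 3.

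The regulators of the pathway split. MYB12, an activator of flavonol genes, stood at 3.26 CPM in GFP-HY5, below 5.60, 5.32 and 5.72 CPM in WT (-0.74). Its relative MYB111 stood at 7.60 CPM in GFP-HY5, above 3.36, 6.12 and 6.34 CPM in WT (0.57). Of 13 regulators 9 passed and 0 were called, and their median was -0.24. Their sum of 66.5 CPM in GFP-HY5 lay above the WT sums of 62.4, 63.7 and 59.5 CPM.

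**Figure D4:**
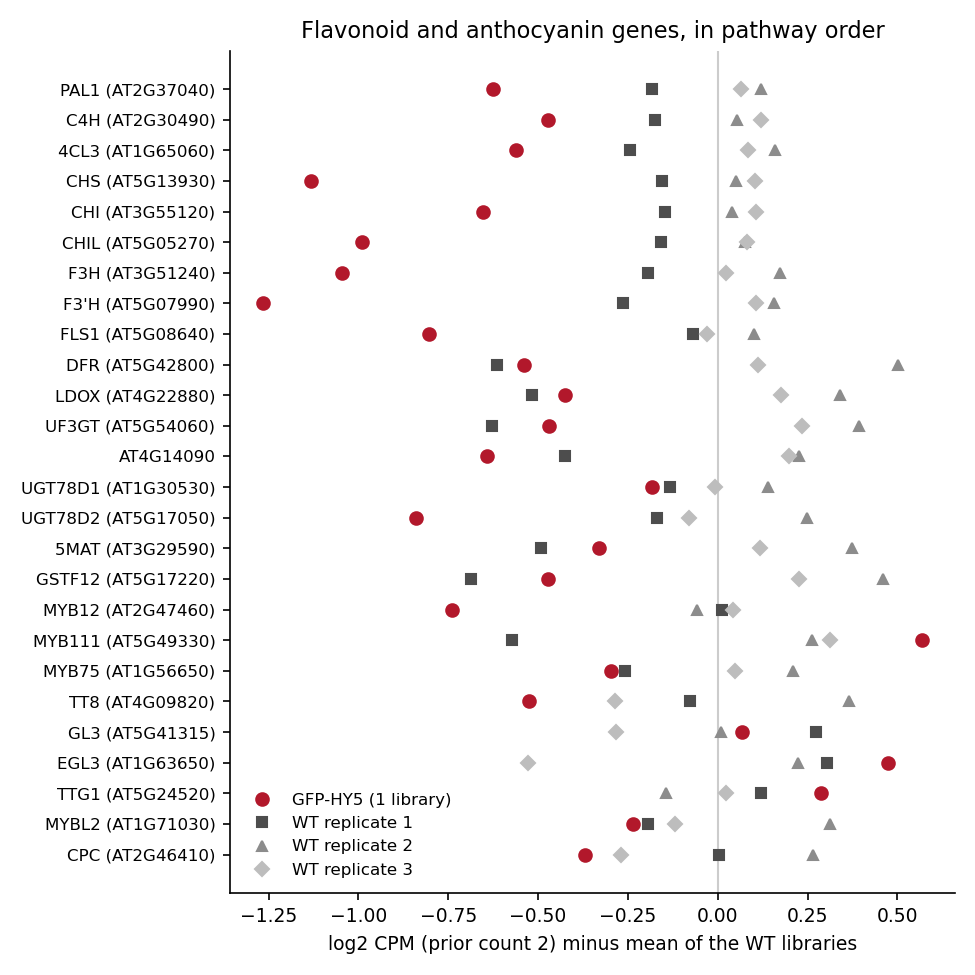
Each row is a flavonoid gene that passed the filter, enzymes above and regulators below, and the x axis is log2 CPM (prior count 2) minus the mean of the WT libraries; circles are GFP-HY5 and grey marks the 3 WT libraries. The enzymes between PAL1 and FLS1 lie left of every WT library, and DFR, LDOX, UF3GT, 5MAT and GSTF12 lie right of WT replicate 1.

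Photosynthesis genes held 0 calls among 25 nuclear loci that all passed, where 1.38% of all passing loci were called, and the median was -0.03, between WT medians of -0.15, -0.12 and 0.30. The light-harvesting genes lay on both sides: LHCB1.4 at 0.51, LHCA4 and LHCB3 at 0.42 each, and LHCB2.3 at -0.36. The 4 genes of the small Rubisco subunit lay below every WT library, between -0.42 for RBCS2B and -0.27 for RBCS1A. RBCS2B stood at 5907 CPM in GFP-HY5 and at 7698, 7369 and 8762 CPM in WT. The list summed to 76536 CPM in GFP-HY5, below 82708, 83380 and 100388 CPM in WT, and WT replicate 3 stood well apart from the other WT libraries. Chloroplast-encoded loci took 1.96% of GFP-HY5 counts and 2.40, 2.38 and 2.78% of WT counts.

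One thylakoid gene stood apart from the rest. AT4G01150, which encodes CURT1A, a protein that bends thylakoid membranes at grana margins, stood at 253 CPM in GFP-HY5, against 742, 705 and 877 CPM in WT. The log2 difference was -1.61, and every WT library lay at least 2-fold above GFP-HY5. Its relatives CURT1B, CURT1C and CURT1D lay at -0.38, -0.19 and -0.06 and were not called. They were looked at because CURT1A was among the 12 largest decreases at loci with at least 5 CPM in the higher group.

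Chlorophyll and plastid genes held 0 calls among the 16 of 17 that passed, where 1.38% of all passing loci were called. The median was -0.17, where WT gave -0.15, -0.04 and 0.17, and 11 loci lay below every WT library (68.8%, against 29.2% of all passing loci). ELIP2, an early light-induced protein gene, had the largest difference, with 5.51 CPM in GFP-HY5 and 6.56, 10.2 and 8.45 CPM in WT (-0.57). GLK1 and GLK2 encode transcription factors of chloroplast development. GLK2 stood at 28.6 CPM in GFP-HY5, below 36.8, 36.2 and 40.1 CPM in WT (-0.39), and GLK1 lay at -0.13. Among biosynthesis genes, HEMA1, which starts tetrapyrrole synthesis, lay at -0.20 and CHLH, a magnesium chelatase subunit, at -0.05.

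Nutrient genes that HY5 is known to act on were set beside WT next. Nitrogen and sulfur genes had 14 of 14 passing and 0 called, where 1.38% of all passing loci were. Their median was -0.14, below WT medians of -0.08, 0.05 and 0.06. NRT2.1, a high-affinity nitrate transporter, had the largest difference of that list (-0.87) but lay within a wide WT range, with 11.6 CPM in GFP-HY5 and 9.67, 45.0 and 22.3 CPM in WT. NRT3.1, its partner protein, stood at 49.0 CPM in GFP-HY5, below 60.4, 83.6 and 77.9 CPM in WT (-0.58). The sulfate-reduction genes APR1, APR2 and APR3 lay below every WT library, at -0.20, -0.44 and -0.33.

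Iron and copper genes had 23 of 23 passing and 1 called lower (4.35%, against 0.687% of all passing loci). BHLH100, a bHLH gene of the iron-deficiency response, stood at 3.65 CPM in GFP-HY5, against 8.31, 8.82 and 10.8 CPM in WT (-1.31). Its relatives BHLH38, BHLH39 and BHLH101 lay at -0.36, -0.34 and -0.45, below every WT library. FRO2, the ferric reductase of the root surface, stood at 89.2 CPM in GFP-HY5, against 139, 160 and 223 CPM in WT (-0.93). IRT1, the main iron importer, stood at 201 CPM in GFP-HY5, against 263, 273 and 462 CPM in WT (-0.67). The upstream regulator FIT lay within the WT range. Among copper genes, SPL7, FSD1 and CSD1 also lay within it, at 0.09, 0.07 and -0.17. Over the whole list 9 loci lay below every WT library (39.1%, against 29.2% of all passing loci). Above every WT library lay 1 (4.35%, against 29.2%).

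Phosphate-starvation genes had 7 of 10 passing, 2 called lower (28.6%, against 0.687% of all passing loci) and a median of -0.48, below WT medians of -0.20, 0.06 and 0.01. SPX1, a phosphate-sensing inhibitor, stood at 3.88 CPM in GFP-HY5, against 7.12, 8.66 and 8.89 CPM in WT (-1.05). That call was lost without WT replicate 3 (-0.99) and with library size only (-0.98). IPS1, a non-coding starvation RNA, stood at 0.54 CPM in GFP-HY5, against 1.52, 1.67 and 1.67 CPM in WT (-1.34). PAP17, an acid phosphatase gene, lay at -0.84, SQD2, a sulfolipid synthase gene, at -0.48, and 6 of the 7 lay below every WT library (85.7%, against 29.2% of all passing loci).

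Elongation and hormone genes had 12 of 20 passing and 1 called higher (8.33%, against 0.692% of all passing loci). Their median was 0.04, where WT gave -0.04, -0.04 and 0.09. GA20OX1, a gibberellin synthesis gene, had 29 counts in GFP-HY5 and 15, 17 and 7 counts in WT (1.04), a call lost without WT replicate 3 (0.75) and with a prior count of 5 (0.90). Of 12 clock genes 11 passed and 0 were called, where 1.38% of all passing loci were. Their median was 0.05. PRR7, a clock repressor, had the largest difference, with 4.81 CPM in GFP-HY5 and 2.32, 3.50 and 2.73 CPM in WT (0.74). LHY, a morning gene, lay at -0.71 and its partner CCA1 at -0.12.

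COR15A, a chloroplast protein of freezing tolerance, stood at 18.6 CPM in GFP-HY5, against 43.7, 35.6 and 46.1 CPM in WT (-1.15). The stress genes RD29A and KIN1 lay below every WT library at -0.81 and -0.75. RAB18, a dehydrin gene induced by abscisic acid, had 12 counts in GFP-HY5, against 67, 41 and 43 counts in WT (-1.94), and overlaps AT5G66410. COL1, a CONSTANS-like gene, had 52 counts in GFP-HY5, against 107, 116 and 104 counts in WT (-1.12).

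In the stress and defence list, 8 of 11 loci passed, with a median of 0.06. Of these 1 was called higher (12.5%, against 0.692% of all passing loci) and 1 lower (12.5%, against 0.687%). VSP1, a jasmonate-induced protein gene, was called higher, with 1.86 CPM in GFP-HY5 and 0.80, 0.95 and 0.53 CPM in WT (1.16). That call was lost without WT replicate 3 (0.97) and with a prior count of 5 (0.98). The related VSP2 differed by 0.00. PR5, a salicylic acid marker, had 119 counts in GFP-HY5, above 75, 67 and 60 counts in WT (0.72). PR1 had no count in the 4 libraries.

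Seed genes served as markers of residual seed material. Of 10 seed loci 1 passed, the storage protein gene CRA1, with 7 counts in GFP-HY5 and 9, 33 and 12 counts in WT (-1.03). That value rested on WT replicate 2, without which it was -0.56 and not called. The call was also lost with library size only (-0.98) and with a prior count of 5 (-0.85).

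**Figure D5:**
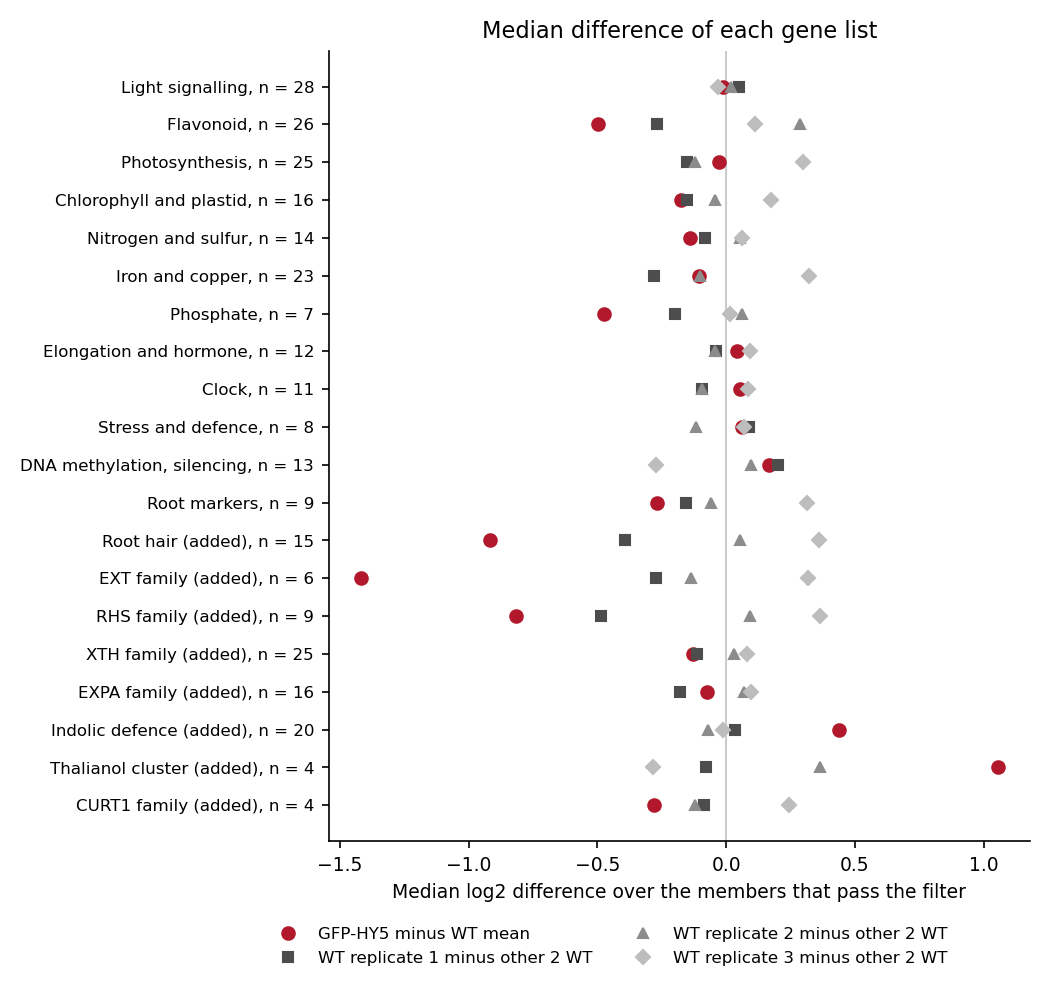
The x axis gives the median log2 difference over the members of each list that passed the filter, whose number stands beside its name; the circle is GFP-HY5 minus WT, and the grey marks are each WT library minus the other 2. The EXT family, matched by symbol, lies at -1.42 and the thalianol cluster at 1.06, both far outside their WT medians. Both were picked after their values were seen, as were the other lists and families marked as added. Light signalling and the clock lie within 0.1 of 0.

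Among loci called higher, 59 had at least 10 counts in every WT library. Genes of indolic defence compounds, a list drawn up after their values were seen, had 20 of 21 passing, 6 called higher (30.0%, against 0.692% of all passing loci) and 14 above every WT library (70.0%, against 29.2% of all passing loci). In the same list each WT library against the other 2 had 2, 0 and 2 called loci for replicates 1, 2 and 3. The median was 0.44, and the WT libraries against each other gave 0.03, -0.07 and -0.01. CYP71A12, which acts on indole-3-acetaldoxime, stood at 26.8 CPM in GFP-HY5, against 1.68, 7.07 and 7.92 CPM in WT (2.50). CYP82C2, an enzyme of cyanogenic indole compounds, had 53 counts in GFP-HY5, against 1, 5 and 11 counts in WT (3.00). WT libraries differed widely at both genes, and GFP-HY5 lay above all of them.

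CYP81F2, an enzyme that modifies indole glucosinolates, stood at 11.4 CPM in GFP-HY5, against 4.64, 4.85 and 5.02 CPM in WT (1.21). The methyltransferase genes IGMT1 and IGMT2, which act after it, lay at 1.28 and 1.32. CYP79B2, which makes indole-3-acetaldoxime from tryptophan, stood at 62.4 CPM in GFP-HY5, against 39.3, 36.5 and 37.4 CPM in WT (0.72). CYP81F4, an enzyme of the same family, stood at 139 CPM in GFP-HY5, below 210, 174 and 182 CPM in WT (-0.44). WRKY33, a transcription factor of camalexin synthesis, stood at 21.0 CPM in GFP-HY5, against 8.79, 8.50 and 13.3 CPM in WT (1.06), and overlaps AT2G08965 and AT2G38480. Its call was lost without WT replicate 1 (0.97) and without WT replicate 2 (0.95). PAD3, the last enzyme of camalexin synthesis, lay at 0.53, and CYP71A13, the close relative of CYP71A12, lay at -0.54.

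Further defence and stress genes were called higher one by one. GSTF7, a glutathione transferase gene, had 636 counts in GFP-HY5, against 166, 232 and 206 counts in WT (1.58). OSM34, an osmotin-like gene, had 618 counts in GFP-HY5, against 180, 220 and 208 counts in WT (1.52). CBP60G, a regulator of salicylic acid synthesis, had 90 counts in GFP-HY5, against 17, 37 and 40 counts in WT (1.46). All 3 genes lay above every WT library. BIP3, a chaperone gene of the unfolded protein response, had 67 counts in GFP-HY5, against 17, 19 and 21 counts in WT (1.64). BGLU18, a β-glucosidase gene, had 1544 counts in GFP-HY5, against 749, 748 and 540 counts in WT (1.11).

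PCC1 (AT3G22231), a gene under control of the clock and of pathogens, had 104 counts in GFP-HY5, against 17, 5 and 14 counts in WT (2.96). AT3G22235 had 103 counts in GFP-HY5, against 19, 14 and 24 counts in WT (2.27). WRKY70, a regulator between salicylic acid and jasmonate responses, had 77 counts in GFP-HY5, against 39, 26 and 42 counts in WT (1.01), a call lost without WT replicate 2 (0.79) and with a prior count of 5 (0.95).

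Thalianol is a root triterpene whose genes form a cluster on chromosome 5. All 4 cluster loci examined, picked after their values were seen, lay above every WT library, where 29.2% of all passing loci did. Of these 2 were called higher, where 0.692% of all passing loci were. THAS1, thalianol synthase, stood at 27.3 CPM in GFP-HY5, against 12.8, 17.6 and 11.8 CPM in WT (0.97). CYP708A2, thalianol hydroxylase, stood at 15.7 CPM in GFP-HY5, against 5.92, 6.51 and 5.28 CPM in WT (1.39). CYP705A5, thalian-diol desaturase, stood at 24.3 CPM in GFP-HY5, against 13.7, 11.5 and 8.27 CPM in WT (1.14), a call lost without WT replicate 3 (0.94). AT5G47980 lay at 0.92.

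Of the 12 largest decreases at loci with at least 5 CPM in the higher group, several have no function in the gene table used. AT5G26270 had 61 counts in GFP-HY5, against 319, 317 and 285 counts in WT (-2.38), and overlaps AT5G04225. AT2G27420 had 20 counts in GFP-HY5, against 78, 74 and 78 counts in WT (-1.92). cPT4, a cis-prenyltransferase gene, had 41 counts in GFP-HY5, against 193, 148 and 132 counts in WT (-1.96), and overlaps AT5G58780. The others were AT5G38820 at -1.59 and AT2G34080 at -1.56, beside the wall genes and CURT1A given above. AT2G34080 overlaps AT2G34110 and AT2G08650. The loci with the fewest GFP-HY5 reads among those called lower were AT1G23935, with 1 count in GFP-HY5 and 32, 33 and 15 counts in WT, and AT5G39160, with 2 counts in GFP-HY5 and 27, 20 and 21 counts in WT.

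The places of the called loci were also described. Chromosome 4 held 32 of the loci called higher (23.9%, where it held 15.5% of passing loci) and chromosome 1 held 44 (32.8%, of passing loci 26.5%). These numbers include 11 loci on chromosome 4 and 12 on chromosome 1 that had at most 3 counts in every WT library. Such loci passed the filter only through GFP-HY5, so part of the excess on these chromosomes comes from them. Chromosome 5 held 41 of the loci called lower (30.8%, of passing loci 23.3%). In windows of 100 passing loci in order along a chromosome, the most called loci, 11, lay between AT4G05632 and AT4G09630, with 6 higher and 5 lower. The next window, between AT1G24450 and AT1G26500, held 10, with 7 higher and 3 lower. Over all passing loci 1.38% were called. Of the neighbouring passing loci, 20 pairs had both loci called, 7 pairs both higher, 9 both lower and 4 in opposite directions, and 2 of the pairs overlap. Windows and pairs were not counted for the WT libraries against each other, so whether these numbers are unusual cannot be judged.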

How the data were processed

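RNA-seq counts of 4 libraries were used, 1 of GFP-HY5 and 3 of WT, with 3 fusca libraries for values set beside them; the 20 ChIP-seq samples were not analysed here. Raw counts per locus on the sense strand were deposited by the authors in 1 table. The submitters' processing notes name Trim Galore, STAR, HTSeq and deepTools and the build TAIR10, without versions or roles. The treatment of reads that map to several places is not given in the sources used here, and the row for them held 0. The 5 summary rows naming no locus were left out; reads on no feature held 48.7% of the GFP-HY5 column and 48.7 to 48.9% of the WT columns.

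Counts were scaled with TMM factors (edgeR 4.0.16, R 4.3.3) over the 4 libraries, and log2 CPM used a prior count of 2. No model was fitted, since GFP-HY5 had 1 library. Ratio intervals are exact at the 95% level and cover counting error only. A count of 3, the floor for fold bounds, is 0.241 CPM in GFP-HY5 before scaling. The steps were tested on simulated data. Symbols came from the RefSeq table of TAIR10.1, which matched 28009 of the nuclear loci and 19289 of those passing the filter. Overlaps of loci were taken from coordinates without regard to strand, and reads on more than 1 locus count for none of them.

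The members, the 13 lists of 233 loci and the alternatives were chosen with earlier results of these data known. A further 4 lists and 4 families were chosen after their values were seen. Loci named by rule are HY5, HYH, COP1 and DET1, the 12 largest increases and decreases among called loci with at least 5 CPM in the higher group, and up to 4 called members per list, or the 1 with the largest difference where none was called. All other loci named were chosen after their values were seen. A planned description of promoter motifs was not run, and 1 planned root marker is not reported here.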

Additional observations from a re-analysis of the deposited data

Results flagged for a closer look

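Data outside the nuclear genes held 2 signals above the level of every WT library. Transposable-element loci, 31189 in number, took 1.81% of the counts over loci in GFP-HY5, against 0.983, 0.950 and 0.950% in WT replicates 1, 2 and 3. Reads on more than 1 locus, which count for none of them, made up 0.594% of the GFP-HY5 column, against 0.573, 0.572 and 0.580% in WT. Neither signal has a replicate in GFP-HY5, and what lies behind them was not tested.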

How the results depend on the processing

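The number of called loci, 267 (134 higher and 133 lower), was 678 (376 and 302) with no filter on low counts, 96 (42 and 54) with a filter of 5 CPM, 1079 (502 and 577) at 1.5-fold and 54 (48 and 6) at 4-fold. Leaving out each WT library gave 265 to 307 called loci, 149 to 161 higher and 116 to 154 lower. With RLE factors 266 were called, with factors over 7 libraries 287, with prior counts of 0.5 and 5 there were 295 and 219, and among protein-coding loci 257.

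Medians of the planned lists moved by more than 1 SD of their values against the 3 single WT libraries in these cases. With library size only, the medians were 0.0528 for light signalling, -0.0723 for nitrogen and sulfur, -0.4089 for phosphate, 0.1105 for elongation and hormone and -0.2005 for the root markers. With no filter they were -0.03 for light signalling, -0.4066 for phosphate, 0.163 for elongation and hormone and -0.4219 for the root markers. With a filter of 5 CPM they were 0.004 for light signalling, 0.0095 for elongation and hormone, 0.2272 for the clock and -0.6204 for the root markers. Without 1 WT library the light signalling median ran between -0.0321 and -0.0103 and the elongation median between -0.0087 and 0.0470. The flavonoid median, which moved by less than 1 SD, ran between -0.7002 and -0.3157. Among lists and families added later, the XTH median moved to -0.0618 with library size only and -0.1701 with a filter of 5 CPM. It was -0.1754 without WT replicate 2. The EXPA median moved to -0.0082 with library size only, -0.0265 with no filter and -0.0156 without WT replicate 3. The indolic median moved to 0.5276 with factors over 7 libraries. The cause was not tested. Of 36 called loci named by rule, 6 lost the call under 1 or more alternatives, as given beside each. The same alternatives were run for 37 further called loci of the text, a choice made after the data were seen, and 12 lost the call. These were GRI, AT3G12955 and HRGP1 at the 2-fold limit and XTH14, XTH31, XTH33, RHS14, SULTR1;1, IRT2, WRKY33, WRKY70 and CYP705A5.

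No paired analysis was possible because the 3 GFP-HY5 columns are identical and count as 1 library. The promoter motif comparison was not run. With 1 GFP-HY5 library, no difference has a replicate check on that side. Loci near the filter rest on few counts, which limits single calls there.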
